A study of Nothobranchius furzeri with 9 samples.

Results

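The genes that license and fire DNA replication origins, build the centromere and kinetochore, and fold or hold together chromosomes were followed through 3 ages of killifish skeletal muscle. They were found by gene name alone: every entry of the expression table whose name begins with MCM, ORC or SMC and a digit, or with GINS, CENP, BUB, NDC80, NUF2 or NCAP, was taken, whatever its values. This gave 62 of 39396 entries, which carry 46 names, and 47 of the 62 had enough reads to be tested, out of 17454 tested entries in all. The RNA came from whole skeletal muscle of 9 male turquoise killifish (Nothobranchius furzeri) of the strain MZM-04/10, none of them marked as treated or genetically altered. Young fish are labelled 5 weeks, adult fish 20 weeks and old fish 35 weeks, with 3 fish and 1 library per fish at each age, and the methods give a range of ages around the label for the adult and old groups. Fish of different ages were compared, so no animal was followed over time.

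Before a cell divides, the origin recognition complex (ORC) marks the places where replication can start and helps to load the ring of MCM2 to MCM7, which becomes the replicative helicase once CDC45 and the GINS complex have joined it. In mitosis, CENP proteins at the centromere carry the outer kinetochore, whose NDC80 and NUF2 subunits grip microtubules, while BUB1, BUB3 and BUB1B hold the cell back until all chromosomes are attached. Condensin compacts chromosomes around a pair of SMC proteins, SMC2 and SMC4, and cohesin holds sister chromatids around another pair, SMC1 and SMC3, and also shapes chromatin in cells that do not divide. Muscle fibres are post-mitotic, so in muscle most of these genes are known from satellite cells, myoblasts and the non-muscle cells between the fibres.

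The values are normalized counts, reads per gene after scaling by 1 factor for each library and rounding. Gene lengths were not used, so genes were not ranked by level. Ratios and shares of genes were compared only between libraries. Entries with a mean of at least 5 were tested on log2(value + 1) with limma, all 9 libraries in 1 fit, and a change was called where the adjusted p (Benjamini-Hochberg) was 0.05 or less and the log2 fold change was 1 or more in size. All fold changes are on that scale, which understates the change of low genes. Reads on genes were estimated at 8.0 to 14.2 M per library, the fewest in the third old fish. Titin and some other muscle fibre markers had high counts in all 9 libraries, and others had low counts, such as MB at 9 to 110. Of 15 tested muscle fibre entries 1 was called higher in adult muscle and 0 in old muscle (4 and 1 at an unadjusted p under 0.05). None was called lower at either age (2 and 0 at an unadjusted p under 0.05).

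Most of the tested entries were lower in adult and in old muscle than in young muscle. In adult fish 27 of the 47 fell and 0 rose, where 11.4% of all tested entries were called lower and 10.7% higher. In old fish 30 of the 47 fell against young and 0 rose, where 9.84% of all tested entries were called lower and 7.91% higher. The median log2 fold change of the 47 was -1.53 in adult and -1.93 in old muscle, beside 0.00 and -0.03 over all tested entries. Counting limma's unadjusted p under 0.05, 31 entries were lower and 0 higher in adult muscle, and 32 lower and 0 higher in old muscle. The share of all tested entries under that limit was not counted, here or for the other lists. All 3 adult libraries lay below all 3 young libraries for 33 of the 47, as they did for 26.3% of all tested entries, and the same count of 33 held in old muscle, beside 22.4%. The adult and the old comparison share the young libraries, so their values are given side by side and are not independent of each other. Scaled to equal library totals, where the median of all tested entries moved to -0.11 in adult and -0.29 in old muscle, 29 and 31 of the 47 were called lower and 0 higher. That scaling called 2312 entries lower and 1422 higher in adult muscle over the whole table, in place of 1987 and 1868, and 2605 lower and 802 higher in old muscle, in place of 1717 and 1381.

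**Figure D1:**
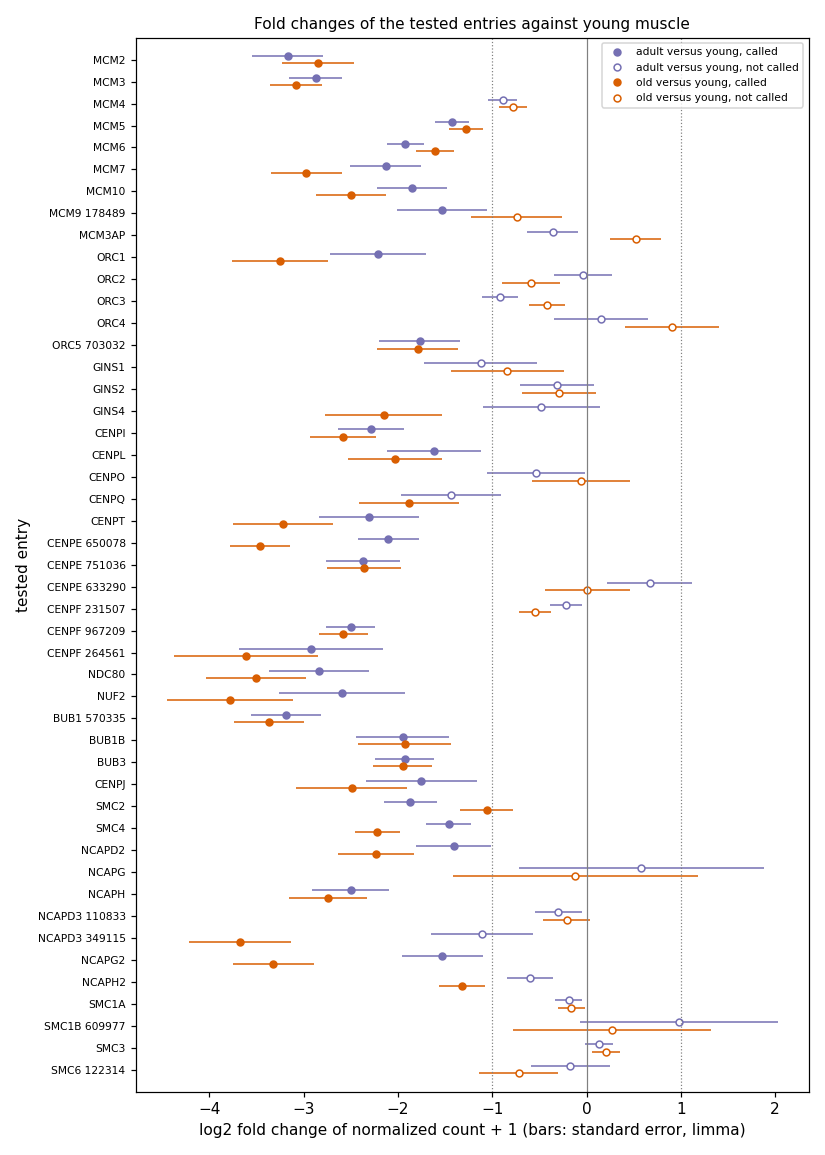
Each row is a tested entry and each point its log2 fold change of normalized count + 1 against young muscle, adult in purple and old in orange, filled where called, with bars for the standard error from limma and dotted lines at the fold limit. Filled points all lie left of the left dotted line, 27 in adult and 30 in old muscle, while the cohesin subunits SMC1A and SMC3 lie near 0.

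In whole tissue, fewer dividing cells and less RNA per cell cannot be told apart. Markers of other cell types also differed between the ages. The summed normalized count of 15 cartilage and bone entries was 2742 to 4456 in young libraries, 1031 to 2062 in adult libraries and 627 to 1066 in old libraries, and of its 12 tested entries 4 were called lower in adult and 10 in old muscle. Of 6 tested neural and Schwann cell entries 5 were called lower at both later ages, with GFAP, a glial filament protein, at 180, 898 and 570 in young fish and at 5 or less in each adult and old fish. GFAP, PLP1B and STMN2B passed the minimum mean through the young fish alone, as did COL9A1 entry 925931 among the cartilage and bone markers. Satellite cell and myoblast markers summed to 1610 to 1714 in young libraries, 770 to 1126 in adult libraries and 1470 to 2113 in old libraries. Of their 10 tested entries 2, MYOD1 and MYOG, were called lower in adult and 1, PAX3B entry 507096, higher in old than in young muscle. MYOD1 and MYOG were also called higher in old than in adult muscle (limma adjusted p = 0.0226 and 0.0235), as were 0.825% of all tested entries. Leukocyte markers summed to 719 to 791 in young libraries, 801 to 1680 in adult libraries and 729 to 791 in old libraries, with 4 of 14 tested entries called higher in adult muscle, and 1 called higher and 1 lower in old muscle. Of 4 tested erythroid entries 0 were called in adult muscle (3 lower and 1 higher at an unadjusted p under 0.05) and 1 was lower in old muscle. PAX7, the defining satellite cell factor, was at 62, 57 and 64 in young fish, 82, 36 and 55 in adult fish and 112, 110 and 62 in old fish and was not called in any comparison. The part of these cell types in the results on replication and division genes was not tested.

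The 6 subunits of the replicative helicase were all lower after the young age, by folds between 1.72 and 9.01. MCM2 (entry 892743) was at 251, 391 and 306 in young fish, 36, 21 and 50 in adult fish and 24, 46 and 68 in old fish. Every later library was thus far below every young library, and its log2 fold change was -3.17 in adults (SE 0.38, 9.01-fold lower, limma adjusted p = 0.000178) and -2.85 in old fish (SE 0.38, 7.21-fold lower, adjusted p = 0.000586). MCM3 (entry 903708) was at 97, 133 and 138 in young fish, 12, 17 and 19 in adult fish and 11, 13 and 17 in old fish. It too had no overlap with the young values, and its log2 fold change was -2.87 in adult (SE 0.28, adjusted p = 6.92e-05) and -3.08 in old muscle (SE 0.28, adjusted p = 9.22e-05). MCM7 (entry 526336) went from 97, 107 and 85 in young fish to 14, 32 and 21 in adult fish and 15, 6 and 16 in old fish. Its fall was 4.37-fold in adult (adjusted p = 0.00175) and 7.82-fold in old muscle (adjusted p = 0.000482), with the adult and old values overlapping.

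For MCM6 and MCM5 the folds were smaller. MCM6 (entry 687728) was at 143, 205 and 175 in young fish, 45, 40 and 50 in adult fish and 60, 49 and 59 in old fish, a fall of 3.79-fold in adult (adjusted p = 9.59e-05) and 3.06-fold in old fish (adjusted p = 0.000409). MCM5 (entry 415404) was at 384, 475 and 411 in young fish, 167, 123 and 184 in adult fish and 168, 168 and 185 in old fish, a fall of 2.70-fold (adjusted p = 0.000221) and 2.42-fold (adjusted p = 0.000771). For both genes the 3 young values were clear of all 6 later values, which overlapped with each other.

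MCM4 kept the most of its young level among the 6 subunits. MCM4 (entry 128549) was at 895, 1011 and 1133 in young fish, 499, 529 and 608 in adult fish and 615, 611 and 539 in old fish, so that again no later library reached a young library. Its log2 fold change was -0.89 in adult (SE 0.15, adjusted p = 0.00113) and -0.78 in old muscle (SE 0.15, adjusted p = 0.00344), which passed the p limit but not the fold limit. Scaled to equal library totals, the same values were -1.0 and -1.05 and both were called. As a share of the summed normalized counts of the 6 subunits, MCM4 made up 47.9, 43.5 and 50.4% in young fish, 64.6, 69.4 and 65.2% in adult fish and 68.9, 68.4 and 61.0% in old fish. The size of this share also depends on gene lengths, so only its difference between ages was read. The sum itself was 1867 to 2322 in young libraries, 762 to 932 in adult libraries and 884 to 893 in old libraries.

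The subunits were also set against MCM4 within libraries, where a scaling factor cancels. All ratios given here were chosen after the values had been seen, with MCM4, whose fold was the smallest, below the line, so they are a description only. An exact permutation test of 3 against 3 libraries cannot give a p under 0.1, so none is given. The log2 ratio of MCM2 to MCM4 was -1.69 ± 0.28 (SD, n = 3) in young fish, -3.97 ± 0.54 in adult fish and -3.76 ± 0.83 in old fish. The log2 ratio to MCM4 was lower in each later library than in each young library for MCM2, MCM3, MCM5, MCM6 and MCM7 alike. Its mean differed from young muscle by between -0.54 for MCM5 and -2.28 for MCM2 in adults and by between -0.50 for MCM5 and -2.30 for MCM3 in old fish.

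**Figure D2:**
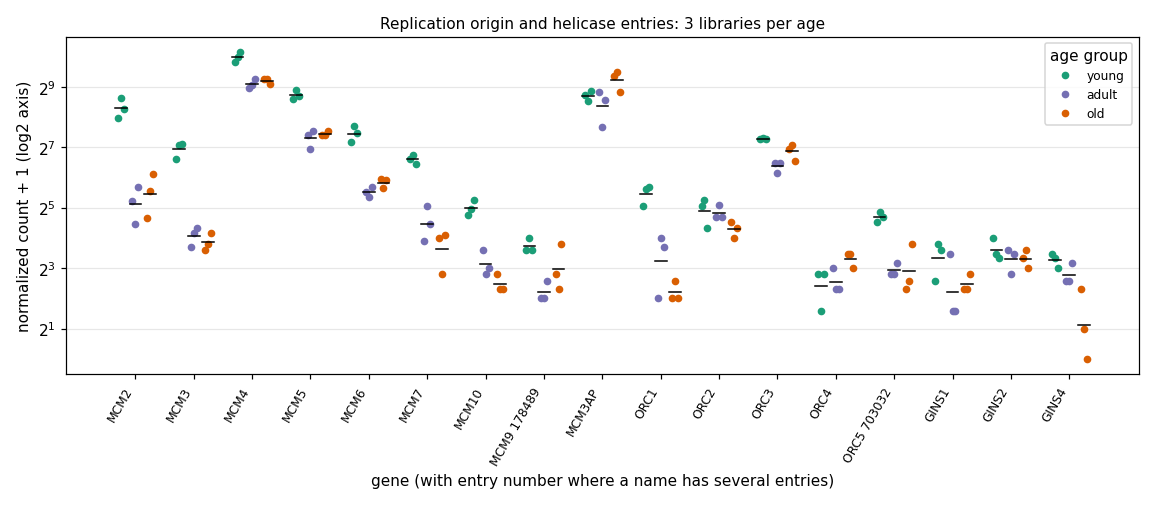
Normalized count + 1 (log2 axis) of the tested MCM, ORC and GINS entries in each of the 9 libraries, young in green, adult in purple and old in orange, with a bar at the mean of the log2 values of each age. MCM2 goes from 251 to 391 in young fish to 21 to 68 in the later fish, while MCM4 stays between 499 and 615 in the later fish and ORC2 overlaps between young and adult.

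The other MCM proteins are not part of the ring. MCM10, which helps to turn the loaded ring into an active fork, was at 26, 30 and 37 in young fish, 11, 6 and 7 in adult fish and 6, 4 and 4 in old fish (entry 383410). Its later values were all below the young values, and its fall was 3.62-fold in adult (adjusted p = 0.00291) and 5.66-fold in old muscle (adjusted p = 0.000904). MCM9, which acts in homologous recombination together with MCM8, had an entry (178489) at 11, 15 and 11 in young fish, 3, 3 and 5 in adult fish and 6, 4 and 13 in old fish. It fell by 1.53 on the log2 scale in adults (SE 0.48, adjusted p = 0.0287), where the old values overlapped with the young ones (log2 fold change -0.74, adjusted p = 0.267). The adult call was lost without any of young fish 1, 2 or 3 or adult fish 1 or 2, with adjusted p between 0.0593 and 0.102, and without a filter on low values (adjusted p = 0.0532). MCM3AP, which is not an MCM helicase subunit and is known as a factor of mRNA export, was called in no comparison. Its values were 418, 371 and 464 in young fish, 455, 202 and 372 in adult fish and 646, 716 and 455 in old fish.

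Among the ORC subunits, ORC1 and ORC5 fell and ORC2, ORC3 and ORC4 were not called. ORC1, the ATPase subunit whose level in human cells goes up and down with the cell cycle, was at 32, 48 and 50 in young fish, 3, 15 and 12 in adult fish and 3, 5 and 3 in old fish (entry 472357). No later value reached a young value, and the fall was 4.63-fold in adult (SE 0.51 log2, adjusted p = 0.00659) and 9.51-fold in old fish (SE 0.51 log2, adjusted p = 0.00119). The first adult fish was the lowest of the adults, and without it the log2 fold change in adults was -1.59 (adjusted p = 0.0141) in place of -2.21. Without that fish ORC1 was also called lower in old than in adult muscle, with a log2 fold change of -1.66 (adjusted p = 0.0474) in place of -1.04.

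ORC5 is another ATPase-type subunit of the complex. Its tested entry (703032) was at 22, 28 and 25 in young fish, 6, 6 and 8 in adult fish and 4, 5 and 13 in old fish, a fall of 3.40-fold (adjusted p = 0.00861) and 3.46-fold (adjusted p = 0.0105) with no overlap with young muscle. ORC3 (entry 301526), a core subunit, was at 154, 156 and 152 in young fish, 89, 69 and 87 in adult fish and 122, 135 and 92 in old fish. Its values were below young at both later ages and above adult in all 3 old fish, with log2 fold changes of -0.92 in adult (adjusted p = 0.00414, under the fold limit), -0.42 in old against young (adjusted p = 0.125) and 0.50 in old against adult fish (adjusted p = 0.174). At equal library totals the adult value was -1.03 and was called.

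ORC2 and ORC4, also core subunits, were called in no comparison. ORC2 (entry 506654) was at 32, 37 and 19 in young fish, 25, 33 and 25 in adult fish and 22, 15 and 19 in old fish, with a log2 fold change of -0.04 in adult (95% interval -0.71 to 0.63) and -0.59 in old muscle (-1.26 to 0.08). ORC4 (entry 556463) was at 6, 2 and 6 in young fish, 7, 4 and 4 in adult fish and 10, 10 and 7 in old fish. All 3 old values of ORC4 were above all young values, at a log2 fold change of 0.91 that did not pass the test (SE 0.50, adjusted p = 0.195). The log2 ratio of ORC1 to ORC3 was -1.83 ± 0.35 (SD, n = 3) in young fish, -3.13 ± 1.22 in adult fish and -4.66 ± 0.24 in old fish.

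Normalized counts of the GINS subunits were low at all ages, which also depends on gene lengths. GINS4 (entry 923000) was at 10, 9 and 7 in young fish, 5, 5 and 8 in adult fish and 4, 1 and 0 in old fish, and it alone of the complex was called, 4.45-fold lower in old than in young muscle (adjusted p = 0.0249). The call was lost without any of young fish 1, 2 or 3 or the third old fish, with adjusted p between 0.0530 and 0.0745, and with only the 2 ages fitted (adjusted p = 0.0509), and the fold was larger without the first old fish (log2 fold change -2.76, adjusted p = 0.00990). GINS1 (entry 649625) was at 5, 13 and 11 in young fish, 10, 2 and 2 in adult fish and 4, 4 and 6 in old fish, with overlapping ages and log2 fold changes of -1.12 (adjusted p = 0.179) and -0.84 (adjusted p = 0.323). Without the first adult fish GINS1 was called lower in adults, with a log2 fold change of -1.74 (adjusted p = 0.0479). GINS2 (entry 464572) was between 6 and 15 in all 9 fish and overlapped between all ages.

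Of the 17 tested entries of the centromere and kinetochore 13 fell in adult and 14 in old muscle, with medians of -2.10 and -2.49. Of the 17 tested origin entries 9 fell at each age, with medians of -1.43 and -1.28. Over all tested entries 11.4% were called lower in adult and 9.84% in old muscle. The centromere entries include CENPJ, known as a centriole protein, which was called at both ages. The origin entries include MCM3AP, which was called at neither. The difference between the 2 groups was not tested. The summed normalized count of all 21 centromere and kinetochore entries was 1269, 1048 and 942 in young libraries, 300, 332 and 334 in adult libraries and 248, 267 and 241 in old libraries. Within young fish the highest centromere sum was in fish 1, which had the lowest sum of the origin entries of the 3 (2618, beside 3069 and 3056).

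The inner kinetochore is represented by CENPI, CENPL, CENPO, CENPQ and CENPT, which belong to the network of proteins that sits on centromeric chromatin throughout the cell cycle. CENPI (entry 763844) was at 49, 55 and 45 in young fish, 11, 12 and 6 in adult fish and 5, 9 and 9 in old fish, a clean separation from young muscle with a fall of 4.90-fold (adjusted p = 0.000734) and 5.99-fold (adjusted p = 0.000649). CENPT, which links the centromere to NDC80, was at 70, 53 and 36 in young fish, 15, 3 and 17 in adult fish and 4, 4 and 6 in old fish (entry 453311). Its log2 fold change was -2.31 in adults (SE 0.53, adjusted p = 0.00692) and -3.22 in old fish (SE 0.53, adjusted p = 0.00167). The second adult fish was the lowest adult for CENPT, and without it the adult log2 fold change was -1.62 (adjusted p = 0.0124).

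CENPL, CENPQ and CENPO belong to the same network. CENPL (entry 735110) was at 11, 13 and 12 in young fish, 2, 4 and 4 in adult fish and 3, 3 and 1 in old fish and was called at both ages, with log2 fold changes of -1.62 (adjusted p = 0.0286) and -2.03 (adjusted p = 0.0130). The adult call of CENPL was lost without any of young fish 1, 2 or 3 or adult fish 1 or 2 (adjusted p between 0.0526 and 0.0904), and the old call without young fish 2 (adjusted p = 0.0507). CENPL passed the minimum mean through the young fish alone. CENPQ (entry 14709) was at 18, 15 and 15 in young fish, 6, 6 and 4 in adult fish and 6, 1 and 6 in old fish. All its later values were below young, and it was called in old muscle (log2 fold change -1.88, adjusted p = 0.0223) and just missed in adult muscle (log2 fold change -1.44, adjusted p = 0.0549). The adult value was called without old fish 2 or old fish 3 (adjusted p = 0.0114 and 0.0460), which enter only through the shared spread, with only the 2 ages fitted (0.00985) and with an added constant of 5 (0.0211), and the old call was lost without any of the young fish (adjusted p between 0.0625 and 0.0694). Without old fish 2, the lowest, the old log2 fold change of CENPQ was -1.28 (adjusted p = 0.0408). CENPO (entry 854672) was between 2 and 10 in all fish and overlapped between the ages.

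NDC80 and NUF2 form the microtubule-binding arm of the outer kinetochore, and both fell. NDC80 (entry 152599) was at 75, 48 and 38 in young fish, 6, 6 and 7 in adult fish and 9, 4 and 1 in old fish, and NUF2 (entry 657029) at 48, 28 and 21, then 5, 2 and 7, then 5, 0 and 1. For both genes the first young fish was the highest of all 9 fish and the later values were far below every young value. The log2 fold change of NDC80 was -2.84 in adults (SE 0.53, adjusted p = 0.00211) and -3.50 in old fish (SE 0.53, adjusted p = 0.00108), the latter -2.89 without the third old fish (adjusted p = 0.00164). For NUF2 it was -2.59 (SE 0.67, adjusted p = 0.0124) and -3.78 (SE 0.67, adjusted p = 0.00239), and its adult call was lost without the first young fish (adjusted p = 0.0558). NUF2 passed the minimum mean through the young fish alone, and such an entry had to differ between the ages. The old value of NUF2 was -4.48 without the first and -3.18 without the second old fish, both called, and with values of 0 and 1 its size depends on the constant added before the logarithm.

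CENPE, a kinesin motor that moves chromosomes along microtubules, and CENPF, a large coiled-coil protein of the outer kinetochore, each have 3 entries, and in both names 2 entries fell and the other was not called. CENPE entry 650078 was at 138, 103 and 86 in young fish, 28, 22 and 23 in adult fish and 14, 8 and 6 in old fish, so that the 3 ages did not overlap at any step. It was 4.28-fold lower in adult (adjusted p = 0.000671) and 11.0-fold lower in old than in young muscle (adjusted p = 9.22e-05), and 2.57-fold lower in old than in adult muscle (adjusted p = 0.0462). The last of these calls was lost in 8 of the 9 fits that left out 1 library, without a filter (adjusted p = 0.0709), with only the 2 ages fitted (0.166) and with an added constant of 5 (0.0538). Entry 751036 was at 113, 88 and 64 in young fish, 9, 18 and 24 in adult fish and 24, 14 and 12 in old fish, lower by 5.18-fold (adjusted p = 0.00101) and 5.13-fold (adjusted p = 0.00155) with no further difference between adult and old fish (log2 fold change 0.01, 95% interval -0.83 to 0.86). Entry 633290 was at 8, 11 and 5 in young fish, 8, 16 and 16 in adult fish and 5, 10 and 9 in old fish, with all ages overlapping and log2 fold changes of 0.67 (adjusted p = 0.274) and 0.01 (adjusted p = 0.990).

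The same split was seen in CENPF. Entry 967209 was at 290, 225 and 224 in young fish, 32, 61 and 39 in adult fish and 44, 46 and 32 in old fish, a fall of 5.65-fold (adjusted p = 9.05e-05) and 5.96-fold (adjusted p = 0.000133). Entry 264561 was at 57, 51 and 50 in young fish, 10, 7 and 3 in adult fish and 11, 6 and 0 in old fish, with log2 fold changes of -2.92 (adjusted p = 0.0125) and -3.61 (adjusted p = 0.00568), the latter -4.34 without the first (adjusted p = 0.00367) and -2.55 without the third old fish (adjusted p = 0.00385). Entry 231507 in contrast was at 158, 138 and 138 in young fish, 111, 133 and 129 in adult fish and 87, 108 and 101 in old fish. Each later age lay wholly below the one before it, but the log2 fold change was only -0.22 in adult (adjusted p = 0.348) and -0.55 in old against young muscle (adjusted p = 0.0333), under the fold limit. The log2 ratio of entry 967209 to entry 231507 was 0.76 ± 0.10 (SD, n = 3) in young fish, -1.53 ± 0.36 in adult fish and -1.27 ± 0.33 in old fish, a difference of -2.28 and -2.03 from young muscle. In the RefSeq annotation of another killifish assembly, NfurGRZ-RIMD1, the names CENPE and CENPF have 1 locus each, and whether the entries are pieces of 1 gene was not tested. Reads that fit several places were left out by the authors, which lowers the values of near-identical copies.

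**Figure D3:**
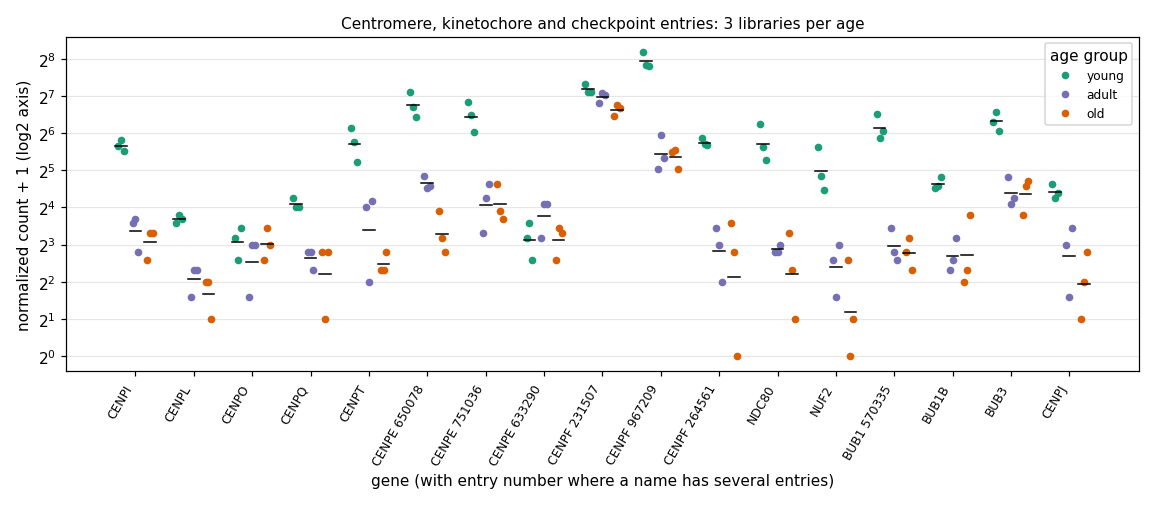
Normalized count + 1 (log2 axis) of the tested centromere, kinetochore and checkpoint entries in each of the 9 libraries, young in green, adult in purple and old in orange, with a bar at the mean of the log2 values of each age. BUB1 lies at 57 to 90 in young fish and at 4 to 10 in later fish, while CENPE entry 633290 lies at 5 to 16 and CENPF entry 231507 at 87 to 158 over all 9 fish.

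All 3 tested spindle checkpoint genes fell, with adult and old values that overlapped. BUB1, a kinase that recruits checkpoint proteins to kinetochores, was at 90, 57 and 65 in young fish, 10, 6 and 5 in adult fish and 6, 8 and 4 in old fish (entry 570335). It was 9.10-fold lower in adult (SE 0.37 log2, adjusted p = 0.000147) and 10.3-fold lower in old muscle (SE 0.37 log2, adjusted p = 0.000205). BUB3, the partner that brings BUB1 and BUB1B to the kinetochore, was at 78, 94 and 66 in young fish, 27, 16 and 18 in adult fish and 13, 23 and 25 in old fish (entry 344108), a fall of 3.82-fold (adjusted p = 0.000920) and 3.86-fold (adjusted p = 0.00131). BUB1B, the checkpoint protein also called BUBR1, was at 22, 23 and 27 in young fish, 4, 5 and 8 in adult fish and 3, 4 and 13 in old fish (entry 602794). Its log2 fold change was -1.95 in adult (adjusted p = 0.0111) and -1.93 in old muscle (adjusted p = 0.0146), the latter losing its call without the third young fish (log2 fold change -1.84, adjusted p = 0.0588). For all 3 genes the young values were clear of the later values, and the 95% interval of the difference between old and adult muscle included 0.

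CENPJ shares the CENP name but is known as a centriole protein. Its entry (873192) was at 24, 18 and 20 in young fish, 7, 2 and 10 in adult fish and 1, 3 and 6 in old fish. It was called lower in adult (log2 fold change -1.75, adjusted p = 0.0398) and in old muscle (log2 fold change -2.49, adjusted p = 0.0102). The adult call was lost without any of young fish 1, 2 or 3 or adult fish 1 or 2 (adjusted p between 0.0611 and 0.144), without a filter on low values (0.0672) and with an added constant of 0.5 (0.0508).

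Both SMC subunits of condensin fell at both later ages. SMC2 (entry 396060) was at 152, 128 and 127 in young fish, 41, 45 and 26 in adult fish and 52, 96 and 53 in old fish. SMC4 (entry 957728) was at 162, 140 and 136 in young fish, 40, 64 and 56 in adult fish and 40, 27 and 26 in old fish. Old fish were thus all above adult fish for SMC2, and at or below the lowest adult fish for SMC4. SMC2 was 3.65-fold lower in adult (adjusted p = 0.000664) and 2.09-fold lower in old than in young muscle (adjusted p = 0.0173), and the old call was lost without young fish 1 (log2 fold change -0.98, adjusted p = 0.0635), old fish 1 (-0.91, adjusted p = 0.0598) or old fish 3 (-0.93, adjusted p = 0.0528). SMC4 was 2.75-fold lower in adult (adjusted p = 0.00112) and 4.67-fold lower in old muscle (adjusted p = 0.000205). Neither passed the test between old and adult fish, at log2 fold changes of 0.80 for SMC2 (adjusted p = 0.140) and -0.76 for SMC4 (adjusted p = 0.112).

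The partners were also set against each other within a library. The log2 ratio of SMC2 to SMC4 was -0.09, -0.13 and -0.10 in the young libraries, 0.03, -0.50 and -1.08 in the adult and 0.37, 1.79 and 1.00 in the old libraries. Every old ratio was above every younger ratio, by 1.57 on average against adult and 1.16 against young muscle.

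Condensin I is made with NCAPD2, NCAPG and NCAPH. NCAPH, the subunit that closes the ring, was at 52, 39 and 41 in young fish, 6, 6 and 9 in adult fish and 11, 4 and 4 in old fish (entry 480591), a fall of 5.66-fold (adjusted p = 0.000987) and 6.67-fold (adjusted p = 0.000958). NCAPD2 (entry 504572), a HEAT-repeat subunit, was at 170, 118 and 78 in young fish, 33, 61 and 40 in adult fish and 27, 39 and 13 in old fish. It was lower by 2.65-fold in adult (adjusted p = 0.0197) and 4.68-fold in old muscle (adjusted p = 0.00260), and the adult call was lost without young fish 1 or 2 or adult fish 1 or 3 (adjusted p between 0.0574 and 0.0835).

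NCAPG, the other HEAT-repeat subunit of condensin I, had no such separation between the ages. Its entry (892169) was at 38, 21 and 11 in young fish, 110, 3 and 77 in adult fish and 145, 4 and 10 in old fish. The spread within an age was larger than any difference between ages, with the second adult fish at 3 and the first old fish at 145, and the standard error of its log2 fold changes was 1.30. No comparison was called, at log2 fold changes of 0.58 in adult (adjusted p = 0.762) and -0.12 in old muscle (adjusted p = 0.956), and the sign of these values changed when single libraries were left out.

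Condensin II is made with NCAPD3, NCAPG2 and NCAPH2, and 3 of its 4 tested entries were lower in all old than in all adult fish, as were 7 of the 47 and 10.3% of all tested entries. NCAPG2 (entry 88756) was at 33, 25 and 33 in young fish, 7, 11 and 12 in adult fish and 2, 4 and 1 in old fish, with no overlap between any of the ages. Its log2 fold change was -1.53 in adult (adjusted p = 0.0179) and -3.32 in old against young muscle (adjusted p = 0.000473), and it was 3.46-fold lower in old than in adult muscle without passing the test (adjusted p = 0.0511). The adult call was lost without young fish 1 or 3 or adult fish 1 (adjusted p between 0.0616 and 0.0686), while the step from adult to old was called without adult fish 1 or old fish 2 (adjusted p = 0.0472 and 0.0313). NCAPH2 (entry 858448) was at 78, 58 and 80 in young fish, 43, 60 and 39 in adult fish and 27, 27 and 30 in old fish. It was not called in adult muscle (log2 fold change -0.60, adjusted p = 0.0693), was 2.50-fold lower in old than in young muscle (adjusted p = 0.00248), and lay below adult in all 3 old fish (log2 fold change -0.71, adjusted p = 0.123).

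NCAPD3 has 3 entries, of which 2 were tested, and only 1 of them was called. Entry 349115 was at 18, 18 and 16 in young fish, 6, 7 and 10 in adult fish and 2, 0 and 0 in old fish. Each age was wholly below the one before, and the log2 fold change was -1.11 in adult (adjusted p = 0.137), -3.67 in old against young (adjusted p = 0.000925) and -2.56 in old against adult muscle (adjusted p = 0.0315), values that depend on the added constant because the old libraries were at or near 0. The call between old and adult fish was lost in 7 of the 9 fits that left out 1 library. Entry 110833 was at 49, 61 and 40 in young fish, 36, 40 and 44 in adult fish and 56, 34 and 40 in old fish, with overlap at all ages and a log2 fold change of -0.21 in old muscle (95% interval -0.77 to 0.34). The name has 1 locus in the same RefSeq annotation.

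**Figure D4:**
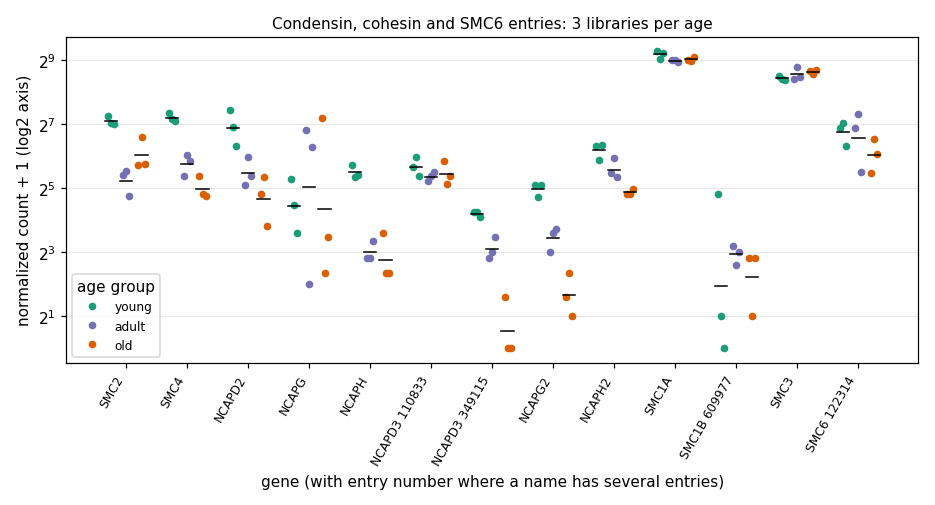
Normalized count + 1 (log2 axis) of the tested condensin, cohesin and SMC6 entries in each of the 9 libraries, young in green, adult in purple and old in orange, with a bar at the mean of the log2 values of each age. SMC1A stays at 485 to 612 and SMC3 at 328 to 441 in all fish, NCAPG scatters from 3 to 145, and NCAPG2 steps down from 25 to 33 in young to 1 to 4 in old fish.

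The cohesin subunits of the SMC family were called in no comparison, and at limma's unadjusted p under 0.05 the count was 0 too. SMC1A (entry 918941) was at 612, 516 and 597 in young fish, 513, 511 and 485 in adult fish and 504, 494 and 547 in old fish, with log2 fold changes of -0.19 in adult (95% interval -0.48 to 0.11) and -0.16 in old muscle (-0.45 to 0.14). SMC3 (entry 719969) was at 359, 337 and 328 in young fish, 338, 441 and 349 in adult fish and 402, 375 and 410 in old fish, with log2 fold changes of 0.13 (-0.20 to 0.46) and 0.21 (-0.11 to 0.54). For both genes these intervals lay well inside the fold limit in either direction. At equal library totals the old value of SMC3 was below 0, and it was not called there either.

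Set against SMC3 in the same library, both condensin subunits were lower in each later fish. The log2 ratio of SMC2 to SMC3 went from -1.33 ± 0.08 (SD, n = 3) in young fish to -3.32 ± 0.35 in adult fish and -2.60 ± 0.56 in old fish, and that of SMC4 to SMC3 from -1.22 ± 0.07 to -2.81 ± 0.22 and -3.66 ± 0.32. These ratios too were chosen after the values had been seen and are a description only.

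SMC1B, known from mammals as the SMC1 form of meiotic cohesin, was detected through 1 tested entry (609977) at 27, 1 and 0 in young fish, 8, 5 and 7 in adult fish and 6, 1 and 6 in old fish. The first young fish held nearly all of the young value, and without it SMC1B was called higher in adult muscle (log2 fold change 2.42, adjusted p = 0.0376) in place of 0.98 (adjusted p = 0.501). Without the third young fish the same value was 0.01 (adjusted p = 0.994). SMC6, of the complex with SMC5 that acts in DNA repair, was at 115, 130 and 78 in young fish, 116, 158 and 44 in adult fish and 43, 91 and 66 in old fish (entry 122314), with overlap at all ages and no call.

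Few calls were made between adult and old muscle. Of the 47 tested entries 2 were called lower in old than in adult fish, CENPE entry 650078 and NCAPD3 entry 349115, and 0 higher, where 1.26% of all tested entries were called lower and 0.825% higher. At limma's unadjusted p under 0.05, 6 were lower and 3 higher, the latter MCM3AP, ORC3 and SMC2, and the share of all tested entries under that limit was not counted. The median log2 fold change of the 47 was -0.29, beside -0.01 over all tested entries. Neither call was firm. That of CENPE was lost in 8 of the 9 fits that left out 1 library, all but the one without old fish 1, with log2 fold changes of -1.12 to -1.43 and adjusted p between 0.0706 and 0.125. That of NCAPD3 was lost without any of young fish 1, 2 or 3, adult fish 2 or 3, or old fish 2 or 3, with log2 fold changes of -2.30 to -2.61 and adjusted p between 0.0556 and 0.123, as it was without a filter (0.0501) and with only the 2 ages fitted (0.115).

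Other genes of the same pathways were read from lists matched by name, beside 11.4% of all tested entries called lower in adult and 9.84% in old muscle. Of 35 tested entries of replication fork genes 15 were lower in adult and 20 in old muscle and 0 rose, with 2 and 1 higher at an unadjusted p under 0.05, and their median log2 fold change was -0.95 and -1.50. TIPIN (entry 74325) and TIMELESS (entry 103416), called at both later ages, passed the minimum mean through the young fish alone. CLSPN, the adaptor that relays fork stress to the checkpoint kinase, was at 96, 146 and 142 in young fish, 32, 27 and 33 in adult fish and 26, 18 and 25 in old fish (entry 354371, 5.35-fold lower in old fish, adjusted p = 0.000144). POLE, the leading-strand polymerase, was at 108, 96 and 80 in young fish, 9, 14 and 14 in adult fish and 12, 4 and 10 in old fish (entry 352587, 10.6-fold lower, adjusted p = 0.000209). TOPBP1, a fork and checkpoint scaffold, was above young in all later fish, at 86, 89 and 99, then 154, 112 and 141, then 154, 116 and 117, without being called.

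Of 19 tested entries of further kinetochore and checkpoint genes 9 were lower in adult and 11 in old muscle and 0 rose, none of them higher at an unadjusted p under 0.05, with medians of -1.28 and -2.01. Among those called, AURKB, CDC20 (entry 359528), MAD2L1, TTK (entry 363076) and MIS18A passed the minimum mean through the young fish alone. Such entries had to differ between the ages. INCENP, the scaffold of the chromosomal passenger complex, was at 293, 243 and 243 in young fish, 56, 66 and 54 in adult fish and 51, 29 and 61 in old fish (entry 503380, 5.66-fold lower in old fish, adjusted p = 0.000148). SPC25, a partner of NDC80 and NUF2 in their complex, was at 56, 33 and 36 in young fish, 6, 6 and 8 in adult fish and 3, 3 and 4 in old fish (entry 236720, 9.64-fold lower, adjusted p = 0.000210). ZW10, which recruits dynein to kinetochores and also works in membrane traffic, was at 393 to 456 in young fish, 345 to 452 in adult fish and 401 to 578 in old fish and was not called.

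Partners of cohesin and of the SMC5 and SMC6 complex had 4 of 19 tested entries lower at each later age and 0 higher, with 1 and 2 higher at an unadjusted p under 0.05 and medians of -0.26 and -0.25. ESCO2, the acetyltransferase that locks cohesin on replicated DNA, was at 32, 11 and 10 in young, 3, 2 and 2 in adult and 0 in all old fish (entry 94031, adjusted p = 0.0146 in adult and 0.00112 in old muscle), and it passed the minimum mean through the young fish alone. PDS5A, a regulator of cohesin release, was at 320, 345 and 346 in young fish, 157, 146 and 176 in adult fish and 197, 224 and 224 in old fish (entry 924145), called in adult (2.11-fold lower, adjusted p = 0.000384) and under the fold limit in old muscle (log2 fold change -0.65). RAD21, the subunit that closes the cohesin ring, had an entry (31557) at 922 to 964 in adult and 755 to 985 in old fish beside 940 to 1085 in young fish, and another (338549) that fell from 22, 50 and 42 to 6, 5 and 12 and to 5, 11 and 13 (adjusted p = 0.00440 and 0.0123). RAD21 lay outside the rule for named genes and was chosen after its values were seen. The entries higher at an unadjusted p under 0.05 were STAG2 entry 317130 at both ages and WAPAL entry 271949 in old muscle. For STAG2 every later fish exceeded every young fish. Its log2 fold change was 0.36 in adult and 0.41 in old muscle (limma unadjusted p = 0.0495 and 0.0274). For WAPAL every old fish did so, at 0.56 (limma unadjusted p = 0.0292). Neither was called, and 6 of the 19 were lower at each age under the same limit. Of 13 tested entries of general proliferation genes 11 were lower in adult and 12 in old muscle and 0 rose, none at an unadjusted p under 0.05, among them TPX2, a spindle assembly factor (13.9-fold lower in old fish, adjusted p = 0.000210), and TOP2A, the mitotic topoisomerase (7.91-fold lower, adjusted p = 0.000214). CCNB3 (entry 470806) and FOXM1 (entry 212485), called at both later ages, passed the minimum mean through the young fish alone.

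The remaining 15 entries had a mean under 5 and were not tested. MCM8, GINS3, CENPP and CENPV had such entries only, 2 each for MCM8 and CENPP and 1 each for GINS3 and CENPV, and MCM9, ORC5, BUB1, NCAPD3, SMC1B and SMC6 had 1 to 3 further entries each, and no library exceeded a normalized count of 16 in any of the 15. In 11 of the 15 the young mean was above both later means. The share over all untested entries was not counted, and at such low values the order of the means says little. For SMC6 entry 587883 it rests on a value of 1 in young fish 3 alone. The 3 tested entries GINS1, CENPL and NUF2 had adult and old means under 5 and so passed the minimum through the young fish alone, and CENPL and NUF2 are among the 27 and the 30 entries called.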

How the data were processed

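Whole muscle of 9 male fish, 3 per age, had been sequenced as stranded total RNA. The authors trimmed the reads (Trimmomatic 0.33), aligned them to the killifish genome (STAR 2.4.2a), counted those touching exons (featureCounts 1.4.5-p1), and left out reads fitting several genes or places. The deposited values are a signal, whole numbers of reads per gene already divided by a DESeq size factor for each library, so tests for raw counts were not run. The strand setting of the counting is not given in the sources used here, so antisense reads could not be told apart.

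The spacing of values within a library gave its size factor (0.69 to 1.25) and hence its reads. No further scaling was applied, since median-of-ratios factors of the deposited values lay between 1.01 and 1.02. Entries with a mean of at least 5 were transformed to log2(value + 1) and compared with limma 3.58.1 in R 4.3.3, 1 mean per age, eBayes with a trend and Benjamini-Hochberg adjustment over all 17454 tested entries. Calls used the limits given in the methods of the study. Ratios of members were taken on log2(value + 1) within a library. An exact permutation test of 3 against 3 libraries cannot give a p under 0.1, so it could not decide and is not reported. Depth and figures were done in Python 3.11.15 with numpy 2.4.6 and matplotlib 3.10.9. The scripts were tested on simulated data.

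Every member was accounted for, and tested members called in at least 1 comparison or belonging to a complex core were given with all values. From 4 pathway lists the 2 entries with the smallest p in each direction were eligible to be named, and 6 marker lists stood for cell types. The members and lists were chosen with earlier results of these data known. RefSeq names of the assembly NfurGRZ-RIMD1 were used for loci only. Promoter and protein sequences were not analysed here. No entry carried the name ORC6, CENPA, CENPC or SMC5, so these genes could not be followed. Alternatives were other scalings, added constants, filters and fits, a replicate block and the omission of each library.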

Additional observations from a re-analysis of the deposited data

How the results depend on the processing

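No result changed direction while called. The count of 27 entries lower in adult than in young muscle was 26 to 29 under the other scalings, added constants and fits and without a filter, and 22 to 28 when 1 library was left out, the lowest without young replicate 1, where 1 of the 22 (SMC1B entry 609977) was higher. The count of 30 in old against young muscle was 29 to 34, and 27 to 30 with 1 library left out. With a minimum mean of 50 only 15 entries could be tested, and 8 were called in each of these comparisons and 0 in old against adult muscle. The count of 2 in old against adult muscle was 0 without a filter or with only the 2 ages fitted, 1 with an added constant of 5, 3 at equal library totals and with robust moderation, and 0 to 3 with 1 library left out. Of the calls, 21 of 27, 25 of 30 and 0 of 2 were kept in all 9 fits that left out a library. Of 2 alternatives added after seeing the data, 1 entry per gene name gave 24, 26 and 1 of 42 tested entries, and leaving out MCM3AP and CENPJ gave 26, 29 and 2 of 45.

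Replicate numbers did not pair the fish: deviations of same-numbered libraries correlated between -0.08 and 0.11. With a replicate block the counts were 27, 30 and 1, NCAPD3 entry 349115 losing its call between old and adult muscle (adjusted p = 0.0616).

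At equal library totals MCM4 was called at both ages, ORC3 in adult muscle and NCAPG2 between old and adult muscle (log2 fold change -1.92, adjusted p = 0.0484). Precision is limited by depth for entries of a few reads, where the added constant sets the size of a fold change, and by 3 fish per age. P-values measure the spread between single fish of an age.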

Other observations

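PCNA, the sliding clamp of replicative polymerases, was called in no comparison while the helicase subunits fell. The study reported lower PCNA in old muscle, in mRNA by qRT-PCR and in protein by Western blot. Its qRT-PCR was normalized to insulin receptor a, not by a factor for each library as here. Whether those assays used the sequenced fish is not stated. PCNA was chosen here after its values were seen. Its entry (956053) was at 123, 100 and 116 in young fish, 112, 160 and 120 in adult fish and 106, 178 and 127 in old fish, with log2 fold changes of 0.20 in adult (95% interval -0.29 to 0.68, limma adjusted p = 0.530) and 0.25 in old muscle (-0.24 to 0.74, adjusted p = 0.437).

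Some names close to the members fell outside the naming rule and were not counted among the members. They too were picked after their values were seen. SMCR8B, which despite its name is no SMC protein and works in autophagy and membrane traffic, was at 142, 155 and 126 in young fish, 525, 793 and 431 in adult fish and 1105, 640 and 992 in old fish (entry 529223). It was called higher in adult (3.99-fold, limma adjusted p = 0.000213) and in old muscle (6.29-fold, adjusted p = 0.000109). SMCR8A (entry 838977) went the other way and was called lower at both later ages. It was at 24, 33 and 20 in young fish, 8, 10 and 13 in adult fish and 10, 8 and 7 in old fish. SMCHD1 was called in no comparison. MCMDC2, a meiotic relative of the MCM helicases in mammals, was at 125, 86 and 88 in young fish, 47, 51 and 31 in adult fish and 54, 77 and 137 in old fish (entry 696874). It was called lower in adult (limma adjusted p = 0.0156) but not in old muscle (adjusted p = 0.619). MCMBP, which binds MCM subunits, was at 65, 49 and 56 in young fish, 40, 34 and 52 in adult fish and 15, 23 and 39 in old fish (entry 500514). It was called lower in old (limma adjusted p = 0.0187) but not in adult muscle (adjusted p = 0.328). MCMBP is also on the list of replication fork genes and is counted there, so it is no separate observation.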
